A study of Mus musculus with 6 samples.

Results

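The 9 genes described here encode secreted proteins of the acute-phase response: the serum amyloid A genes Saa1, Saa2 and Saa3, the lipocalin Lcn2, haptoglobin (Hp), the orosomucoids Orm1 and Orm2, the long pentraxin Ptx3 and the protease inhibitor Slpi. They were taken by name from a table of 54532 genes, as a group led by Saa3, and were chosen by their counts in the baicalin and DMSO libraries, whose differences were already known. The fold changes and calls of the 9 genes are therefore given as a description, without p-values. RNA was sequenced from 6 samples of the mouse fibroblast line 3T3, labelled as wild-type adipocytes, of which 3 received the solvent DMSO and 3 received 200 µM baicalin, a flavone glucuronide of Scutellaria roots. The sources used here give neither the subline, nor the way the cells were turned into fat cells, nor the time of exposure. Nor do they say whether replicates are separate cultures, so a p-value measures only the spread among these samples, which may be technical. Of the mature fat cell markers, Plin4 (428.6 CPM) and Lpl (1442.8 CPM) were plentiful in DMSO. Adiponectin (Adipoq) had a mean of 0.898 CPM over the 6 libraries, leptin (Lep) had 2 reads in all and the glucose transporter Slc2a4 had 6.

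The acute-phase response is the change in secreted plasma proteins that follows infection or injury. Interleukin-6 and its relatives signal through the shared receptor subunit gp130 (Il6st) to the transcription factor STAT3. Interleukin-1 and tumour necrosis factor signal to NF-kB, and both routes meet with the C/EBP factors at the promoters of acute-phase genes. The liver makes most of these proteins for the blood, but fibroblasts, macrophages and fat cells make a part of the set themselves. Saa3 in particular is the serum amyloid A gene known for its expression outside the liver in mice.

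The sequence just before the start of 3 serum amyloid A genes is shown first, because these genes share a locus and differed widely in level while their fold changes were alike. Sequences come from RefSeq (GRCm38.p6), are written 5′ to 3′ on the gene's own strand, and these 3 stop before the first annotated exon base. Capitals mark the C/EBP-type word TTNNGNAA read on either strand. The Saa3 sequence is chr7:46715701-46715926 (minus strand), the Saa1 sequence chr7:46742981-46743230 (minus strand) and the Saa2 sequence chr7:46751583-46751789 (plus strand).
Saa3: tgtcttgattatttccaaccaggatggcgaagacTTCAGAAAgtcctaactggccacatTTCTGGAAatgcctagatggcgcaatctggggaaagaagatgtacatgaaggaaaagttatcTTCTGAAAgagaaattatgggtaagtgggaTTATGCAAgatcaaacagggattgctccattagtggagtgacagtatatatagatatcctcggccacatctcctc
Saa1: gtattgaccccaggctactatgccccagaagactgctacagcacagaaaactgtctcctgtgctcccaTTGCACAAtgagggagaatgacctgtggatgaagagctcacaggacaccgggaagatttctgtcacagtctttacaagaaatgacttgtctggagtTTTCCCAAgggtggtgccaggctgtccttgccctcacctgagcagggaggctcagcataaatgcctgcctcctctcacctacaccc
Saa2: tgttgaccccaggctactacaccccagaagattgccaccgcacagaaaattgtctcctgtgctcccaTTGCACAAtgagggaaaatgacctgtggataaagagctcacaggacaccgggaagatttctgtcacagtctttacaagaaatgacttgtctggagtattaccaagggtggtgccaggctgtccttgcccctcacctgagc
Saa1 and Saa2 were nearly the same over the 250 bases before the start, with 94.8% identity. Saa3 shared 48.5% with Saa1 and 47.4% with Saa2. The Saa3 sequence held 4 matches to the word, at 216, 191, 129 and 99 bases before the RefSeq start, against 2 in Saa1 and 1 in Saa2. Saa4, the gene of this family with the fewest reads, held matches at 245 and 52 bases, so the matches did not follow the level.

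A stretch around a match is shown for 4 further genes, to set the same word beside members that rose by different amounts and beside Orm2, which did not. Their positions are chr2:32387938-32387965 (minus strand) for Lcn2, chr2:164356731-164356757 (minus strand) for Slpi, chr3:66219820-66219847 (plus strand) for Ptx3 and chr4:63362319-63362346 (plus strand) for Orm2. All 4 lie before the RefSeq start. GENCODE also annotates longer forms of Lcn2 and Slpi, so these stretches lie inside the annotated bounds of both genes, and that of Lcn2 inside an annotated exon.
Lcn2: gcccttcctgTTGCTCAAccttgcacag
Slpi: gaatttgtaTTGAGCAAtaggttagag
Ptx3: tggtttaacaTTGTGCAAcctcttcagc
Orm2: agagaacattTTGCGCAAgacatttccc
The word was present in the 250 bases before the start of all 7 members in the promoter table (Saa1, Saa2, Saa3, Lcn2, Orm2, Ptx3 and Slpi), and in 36.8% of all 32851 promoters of that length. It occurred before Orm2 as well as before genes that were higher in baicalin. A match also lay 121 bases before the start of Orm3, a relative of Orm2 that was lower in baicalin. The STAT word TTCNNNGAA was found in 0 of the 7 and in 7.02% of all promoters. The NF-kB consensus was found in 0 of the 7 and in 3.90% of all, and the TATA word TATAAA only in Orm2 among the 7 and in 12.4% of all. All words were searched on both strands, and matches of the first 2 words can overlap. The words were chosen after the promoters had been read, and a match is a description of letters, not of a bound site.

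The libraries held 16730594 to 18326874 counted reads, so a gene without reads could have a level of at most 0.18 CPM (counting error only). CPM is the count relative to the library total, on the usual per-megaread scale and adjusted by edgeR's TMM factors. Of 13728 genes tested, 33.6% were called higher in baicalin and 34.1% called lower, by the quasi-likelihood test of edgeR (p adjusted after Benjamini and Hochberg, threshold 0.05). Over all genes tested, the log2 fold change had a median of 0.00. Scaling by library size alone moved that median to -0.13 and gave 3472 higher and 5811 lower genes in place of 4618 and 4676. All adjusted p-values below come from the edgeR test over all genes. Because whole samples were sequenced, fewer cells of a type and less RNA per cell cannot be told apart.

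All 9 genes passed the low-count filter. Of these, 7 were called higher in baicalin (Saa1, Saa2, Saa3, Lcn2, Hp, Ptx3 and Slpi) and 0 lower, while Orm1 and Orm2 were not called. In the same 7 genes every baicalin library lay above every DMSO library, which also held for 35.1% of all genes tested, and in Orm2 every baicalin library lay below, as in 35.1% of all genes. Since the genes were chosen for this response, nothing is read from these shares. The median log2 fold change of the 9 genes was 2.99. A rise of at least 8-fold was found for 50 of the 13728 genes (0.364%), and Saa1, Saa3, Lcn2 and Slpi were among them. Saa2, at 7.97-fold, stood just outside that bound. Together the 9 genes took 0.317% to 0.353% of all counted reads in DMSO and 2.01% to 2.08% in baicalin.

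**Figure D1:**
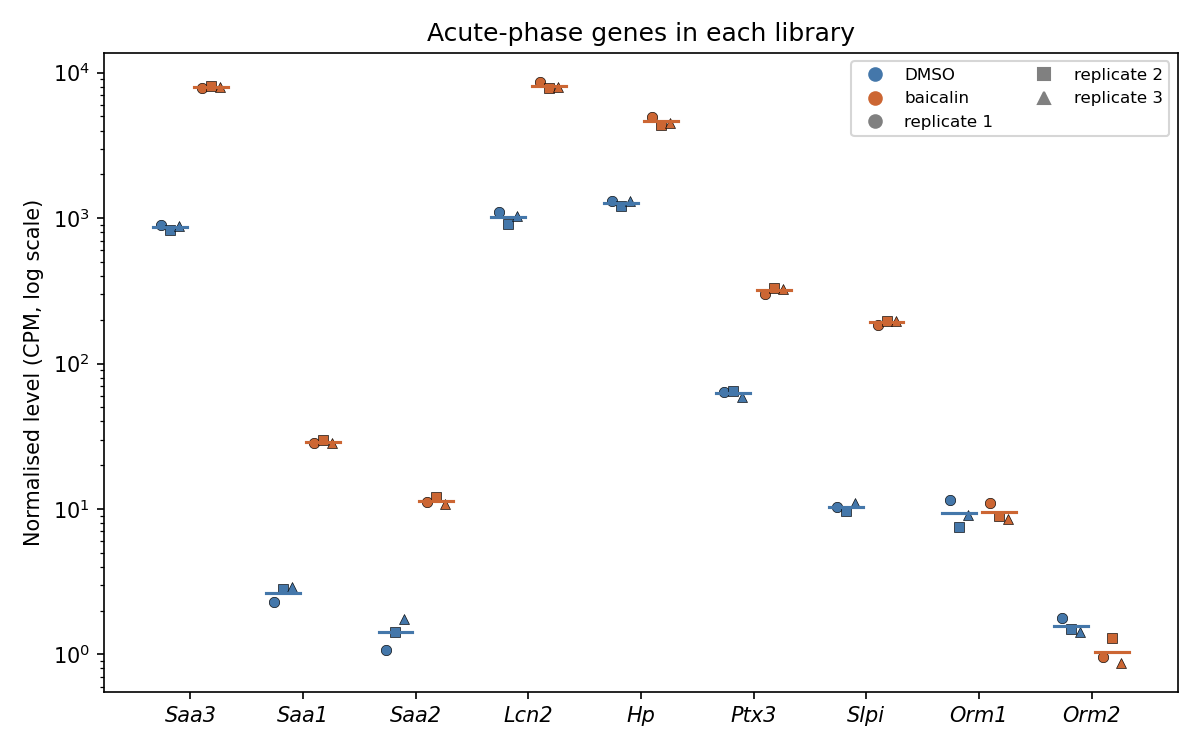
Normalised level (CPM, log scale) of the 9 genes in each of the 3 DMSO (blue) and 3 baicalin (orange) libraries. Symbols mark the replicate number and bars the group mean. Saa3, Lcn2 and Hp stand at the top in both groups, 7 genes are higher in every baicalin library, and the groups overlap for Orm1.

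Serum amyloid A proteins are small apolipoproteins that ride on high-density lipoprotein during inflammation. Saa3 (ENSMUSG00000040026, mm10 chromosome 7, 46711998 to 46715700, minus strand) had 16511, 14534 and 16123 reads under DMSO against 131253, 143135 and 137021 under baicalin. The groups lay far apart, and each was tight. Its level went from 869.7 ± 33.7 to 7988.9 ± 94.1 CPM (SD, n = 3 each), a log2 fold change of 3.20 with an SE of 0.04, or 9.19-fold. The coefficient of variation among the baicalin libraries was 1.18%, the smallest of the 9 genes. By deposited FPKM (fragments per kilobase of gene and per unit of sequencing depth, a level per length), Saa3 ranked 108th to 112th of all genes in DMSO and 6th to 8th in baicalin.

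Saa1 (ENSMUSG00000074115, chromosome 7, 46740497 to 46742980, minus strand), a liver-type serum amyloid A, had 42, 49 and 53 reads under DMSO against 474, 528 and 484 under baicalin. Its log2 fold change was 3.44 with an SE of 0.12, or 10.8-fold. Saa2 (ENSMUSG00000057465, chromosome 7, 46751790 to 46754313, plus strand), the near copy of Saa1, had 20, 25 and 32 reads under DMSO against 185, 215 and 186 under baicalin. Its log2 fold change was 2.99 with an SE of 0.18. Both genes were thus far below Saa3 in either group and higher in every baicalin library. On the log2(FPKM + 1) scale, where the pseudocount weighs on low genes, the values were 2.63 for Saa1 and 1.84 for Saa2.

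The fourth gene of the family, Saa4, which encodes a constitutive form in the liver, had 14 reads over the DMSO libraries and 113 over the baicalin libraries. It rose with a log2 fold change of 3.05 (SE 0.40, adjusted p = 2.35e-09), and on the log2(FPKM + 1) scale without a filter the value was 0.87. Saa3 held 99.4% to 99.6% of the reads of the 4 genes in the 6 libraries, so it made up nearly the whole family in both groups. Within the liver-type pair, Saa1 held 65.4% ± 2.73 of the reads under DMSO against 71.7% ± 0.569 under baicalin (SD, n = 3 each). The groups did not overlap, but the DMSO shares rest on only 62, 74 and 85 reads, so counting error weighs on them.

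Sequence likeness limits how far the small counts of Saa1 and Saa2 can be trusted. The first annotated transcripts of Saa1 and Saa2 were 93.9% identical, and those of Saa1 and Saa3 62.2%. Of the 50-base windows of the Saa1 transcript, 14.8% also occurred in Saa2 or Saa3, and of those of Saa3, 1.78% also occurred in Saa1. No window of 100 bases of these transcripts was shared. Only the first transcripts were cut into windows, with 609 bases for Saa1, 606 for Saa2 and 555 for Saa3. The annotated exonic bases of the genes number 2478, 2518 and 2606, and likeness in the remainder was not examined. The sources used here do not give the read length. In baicalin Saa3 had 411409 reads and Saa1 had 1486, and whether reads of Saa3 were counted for Saa1 was not tested.

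**Figure D2:**
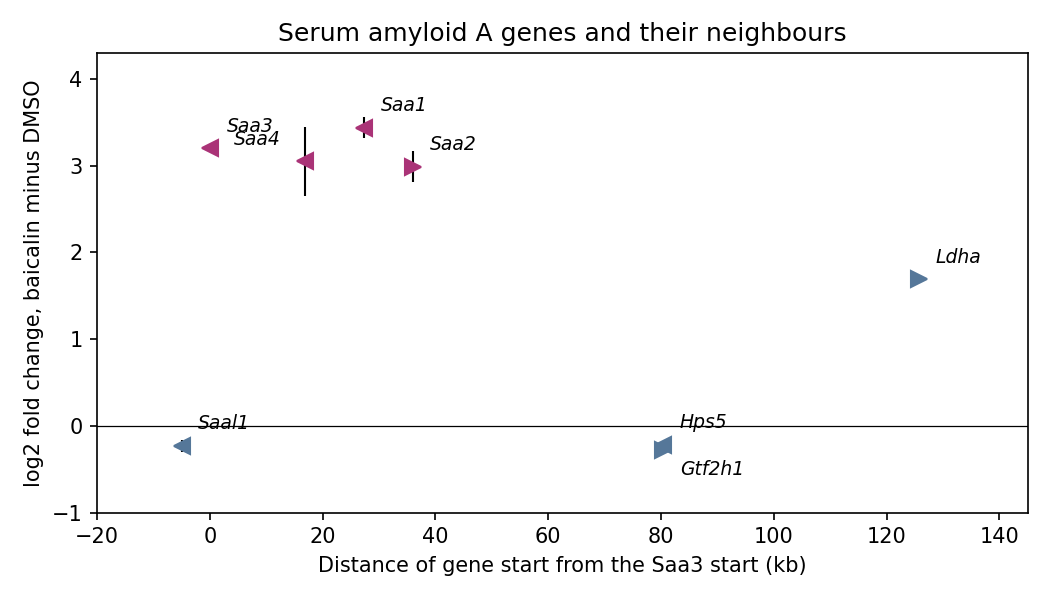
log2 fold change (baicalin minus DMSO, bar: SE) of protein-coding genes around Saa3, against the distance of each gene's start from the Saa3 start (kb). Triangles point along the strand. The 4 serum amyloid A genes lie between 2.99 and 3.44, whereas the near neighbours Saal1, Hps5 and Gtf2h1 lie slightly below 0.

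The 4 serum amyloid A genes lie within 36.1 kb between their starts, and the nearest protein-coding genes on either side had log2 fold changes between -0.28 and -0.22. Saal1, whose name refers to its similarity to serum amyloid A, lies 1.32 kb from Saa3 and had a log2 fold change of -0.23 (adjusted p = 0.00422). On the far side of Saa2, Hps5, a subunit of a complex for lysosome-related organelles, had -0.22 (adjusted p = 0.000439). Gtf2h1, a subunit of the general transcription factor TFIIH, had -0.28 (adjusted p = 1.86e-06). The unclassified transcript Gm45629, 30.3 kb beyond the Saa3 start, had -1.14 (adjusted p = 0.00217), and the pseudogene Gm9392 -0.54 (adjusted p = 0.0358). Among the other genes examined around the locus, the one that rose was Ldha, lactate dehydrogenase A, with a start 125.8 kb away and a log2 fold change of 1.69 (adjusted p = 1.36e-39).

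Lcn2 (ENSMUSG00000026822, chromosome 2, 32384633 to 32388252, minus strand) encodes lipocalin 2, which keeps iron from bacteria by binding their siderophores. It had 20264, 15880 and 18819 reads under DMSO against 143173, 138409 and 136635 under baicalin. The level went from 1012.4 ± 96.1 to 8131.6 ± 425.6 CPM, a log2 fold change of 3.01 with an SE of 0.07, or 8.03-fold. No library of one group came near the other, and DMSO replicate 2 was the lowest. Both flanking genes also rose, but by less: 1110008P14Rik had a log2 fold change of 1.57 (adjusted p = 5.86e-36) and Ptges2, a prostaglandin E synthase, 1.40 (adjusted p = 6.68e-29).

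Hp (ENSMUSG00000031722, chromosome 8, 109575128 to 109579172, minus strand) encodes haptoglobin, which binds free haemoglobin and is made by fat tissue as well as liver. Its reads numbered 24122, 21051 and 23784 under DMSO against 82350, 77384 and 77618 under baicalin. Hp had the most reads of the 9 in DMSO, and the highest FPKM, and had the smallest fold change of the 7 that were called. The level went from 1271.3 ± 58.3 to 4616.3 ± 303.4 CPM, a log2 fold change of 1.86 with an SE of 0.04, or 3.63-fold. Its neighbour Txnl4b, 1.08 kb away, was not called (0.12, adjusted p = 0.375), and Dhodh, an enzyme of pyrimidine synthesis, rose by 0.76 (adjusted p = 7.93e-12).

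Ptx3 (ENSMUSG00000027832, chromosome 3, 66219910 to 66225805, plus strand) encodes pentraxin 3, a pattern recognition protein that binds microbes and complement. It had 1177, 1125 and 1083 reads under DMSO against 5018, 5828 and 5563 under baicalin. That is 62.5 ± 2.73 CPM against 318.4 ± 14.5 CPM, a log2 fold change of 2.35 with an SE of 0.04, or 5.10-fold. Ptx3 lies inside Veph1, which had 5 to 18 reads in a library and was not called (0.63, adjusted p = 0.225). The nearest gene with reads at higher coordinates, the homeobox gene Shox2, fell by 0.35 on the log2 scale (adjusted p = 2.25e-06).

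Slpi (ENSMUSG00000017002, chromosome 2, 164354070 to 164389095, minus strand) encodes an inhibitor of neutrophil serine proteases. It had the largest fold change of the 9 genes, and 15 of the 13728 genes tested rose by more. Reads numbered 191, 170 and 200 under DMSO against 3053, 3472 and 3359 under baicalin. The level went from 10.3 ± 0.618 to 191.8 ± 7.03 CPM, a log2 fold change of 4.21 with an SE of 0.06, or 18.5-fold. Matn4 lies 0.298 kb beyond these bounds, which include a longer form of Slpi, and so lies farther from the RefSeq start. It had a log2 fold change of 0.53 (adjusted p = 0.00154). Stk4, 198.5 kb away on the other side, was not called (-0.02, adjusted p = 0.733).

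The orosomucoids, plasma carriers of drugs and lipids, did not follow the rest. Orm1 (ENSMUSG00000039196, chromosome 4, 63344560 to 63348163, plus strand) had 212, 131 and 165 reads under DMSO against 182, 158 and 147 under baicalin. The groups overlapped, and the log2 fold change was 0.02 with an SE of 0.13. Orm2 (ENSMUSG00000061540, chromosome 4, 63362449 to 63365878, plus strand) had 33, 26 and 26 reads under DMSO against 16, 23 and 15 under baicalin. Its log2 fold change of -0.58 with an SE of 0.32 was not called, although the groups did not overlap. Orm2 was called lower with library size alone and on both log2(FPKM) scales with a filter.

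Orm3, which lies between the pair, was the most abundant orosomucoid in DMSO. It had 631, 557 and 603 reads there and 188, 159 and 143 in baicalin, and fell by 1.79 on the log2 scale (SE 0.09, adjusted p = 2.17e-23). Its share of the reads of the 3 genes went from 75.3% ± 3.04 to 47.5% ± 1.07, and that of Orm1 from 21.1% ± 2.96 to 47.3% ± 0.854 (SD, n = 3 each). Of the genes on either side of the cluster, Akna was not called (0.07, adjusted p = 0.592), and Col27a1, a fibrillar collagen, was lower, with -0.51 (adjusted p = 0.000266). The 3 transcripts were 86.1% to 91.0% identical. Of the 50-base windows of Orm1, 20.4% occurred in another orosomucoid, and of the 100-base windows 6.95% occurred in Orm2, so reads could have been split among the genes. Among the 9 genes the only exon overlap with another gene was 1 base of Slpi shared with Mir7678, which had 0 reads.

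**Figure D3:**
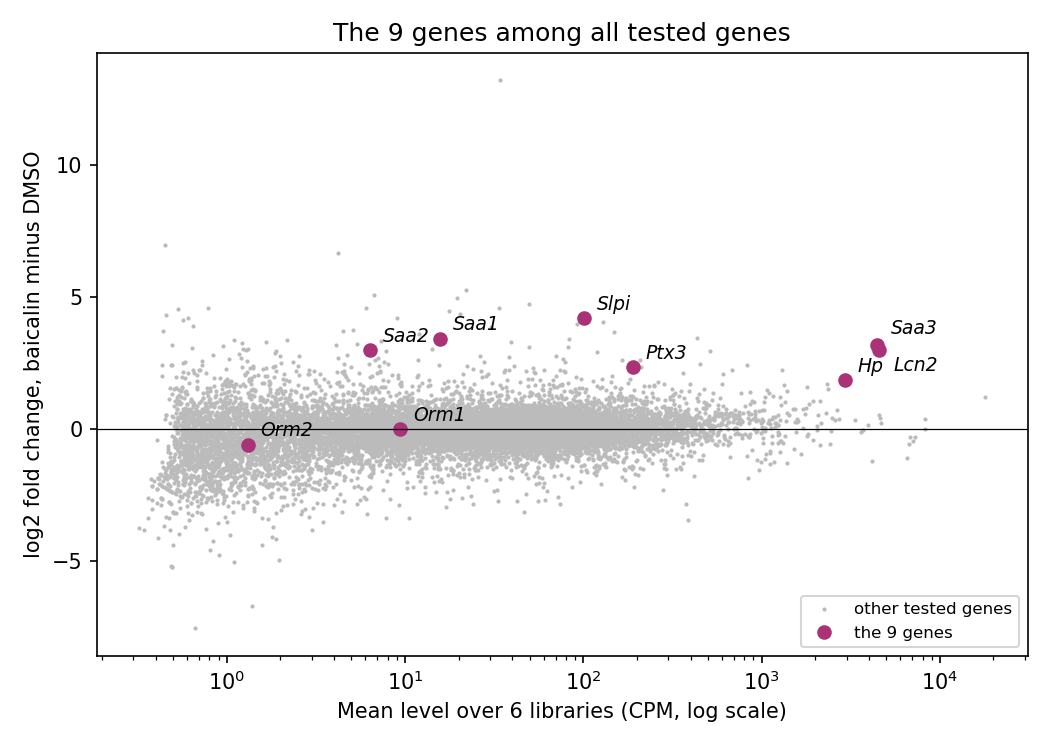
log2 fold change (baicalin minus DMSO) against the mean level over the 6 libraries (CPM, log scale) for the 13728 genes tested, with the 9 genes in colour. Saa3, Lcn2 and Hp stand among the most abundant genes of the table, and Orm1 and Orm2 lie near 0 and slightly below.

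The levels of the 9 genes spanned more than 3 orders of magnitude. By FPKM the order in DMSO was Hp (797.7 ± 37.0), Lcn2 (388.9 ± 37.4), Saa3 (336.3 ± 13.3), Ptx3 (23.5 ± 1.06), Orm1 (12.1 ± 2.64), Slpi (8.83 ± 0.521), Orm2 (2.04 ± 0.257), Saa1 (1.08 ± 0.135) and Saa2 (0.569 ± 0.133). The ranges of neighbours in that order did not overlap. In baicalin the order was Lcn2 (3156.0 ± 182.7), Saa3 (3120.2 ± 20.6), Hp (2926.4 ± 208.8), Slpi (165.5 ± 5.22), Ptx3 (120.8 ± 4.85), Orm1 (12.5 ± 1.76), Saa1 (11.8 ± 0.318), Saa2 (4.6 ± 0.263) and Orm2 (1.37 ± 0.289). There the first 3 genes overlapped, as did Orm1 and Saa1. Slpi thus lay below Ptx3 in DMSO and above it in baicalin, by FPKM and per kilobase of the first annotated transcript. The places of Slpi beside Orm1 and of Saa1 and Saa2 beside Orm2 in DMSO depended on the length used. By the first transcript Saa1 (3.74 to 4.77 CPM per kb) was above Orm2 (1.84 to 2.31) there, and the other pairs overlapped. In baicalin the places of Saa1 and Saa2 beside Orm1 depended on the length too. By the first transcript Saa1 (46.3 to 49.0 CPM per kb) and Saa2 (17.9 to 20.0) were both above Orm1 (11.0 to 14.1).

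The order of the 3 most abundant genes depends on the length as well. The deposited FPKM values correspond to a length of 2606 bases for Saa3, which is the sum of all its annotated exonic bases, whereas its first annotated transcript has 555. For Hp the lengths are 1606 and 1345. Per kilobase of the first transcript, the DMSO levels were 1567.0 ± 60.8 CPM for Saa3, 1106.4 ± 105.0 for Lcn2 and 945.2 ± 43.4 for Hp, the reverse of the FPKM order. The baicalin levels were 14394.5 ± 169.5 CPM for Saa3, 8887.0 ± 465.1 for Lcn2 and 3432.2 ± 225.6 for Hp. In neither group did the ranges of these 3 genes overlap. The ratio of Saa3 to Hp in baicalin was 1.07 ± 0.0803 by FPKM and 4.21 ± 0.316 by the first transcript, a length chosen after seeing the data. Fold changes from counts do not depend on this choice. Those on the log2(FPKM + 1) and log2(FPKM + 0.1) scales do, through the added constant.

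Genes were ranked by likeness to Saa3 over the 6 libraries, by the distance between log2 CPM values centred on each gene's mean. The ranking covered 10271 genes with a mean of at least 5 CPM. Because libraries within a group lay close together, this distance mostly restates the difference in fold change from Saa3. The members were chosen by these same counts, so their ranks are a description and support nothing further. The nearest gene was Slc7a11, the cystine transporter subunit, at a distance of 0.0956. It had 133, 121 and 139 reads under DMSO against 1138, 1260 and 1267 under baicalin. Next came Anxa8, an annexin, at 0.210 and Ereg, the growth factor epiregulin, at 0.279. Saa1, also at 0.279, and Lcn2, at 0.292, completed the first 5. Of the other members, Saa2 ranked 26th, Ptx3 36th, Slpi 46th, Hp 85th and Orm1 5389th, and Orm2 was too low to be ranked.

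Among 29 other acute-phase genes, 17 were tested, of which 12 rose, 3 fell and 2 did not pass. Their median log2 fold change was 1.27, beside 0.00 over all genes tested, of which 33.6% were called higher and 34.1% lower. Those shares are the background for the counts of each list below. Serpina3n, a serine protease inhibitor, had 2198, 1876 and 2265 reads under DMSO against 16456, 15307 and 14808 under baicalin, a log2 fold change of 2.95 (SE 0.07, adjusted p = 5.06e-12). Its relative Serpina3m, which shares 60 exonic bases with Serpina3k (202 reads against 2488), rose by 2.27 (adjusted p = 7.78e-28). Cd14, a lipopolysaccharide receptor subunit, rose by 2.23 (adjusted p = 6.18e-37) and the complement component C4b by 1.84 (adjusted p = 6.56e-35). Complement C3, named after its values were seen as the most abundant gene of this list, went the other way, from 8214.2 ± 205.8 to 6018.5 ± 378.8 CPM (-0.45, adjusted p = 6.99e-14). The other falls were Orm3 and Steap4 (-0.12, adjusted p = 0.00468).

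Some liver products of these lists were at or near 0 reads, and they are named after their values were seen. No read was counted in any library for serum amyloid P (Apcs), the fibrinogen chains Fga, Fgb and Fgg, or hepcidin (Hamp), and C-reactive protein (Crp) had 1 read in all. Of the 8 negative acute-phase genes, which the liver makes less of in inflammation, none had enough reads to be tested, and their summed level was 0.0602 to 0.466 CPM over the 6 libraries.

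**Figure D4:**
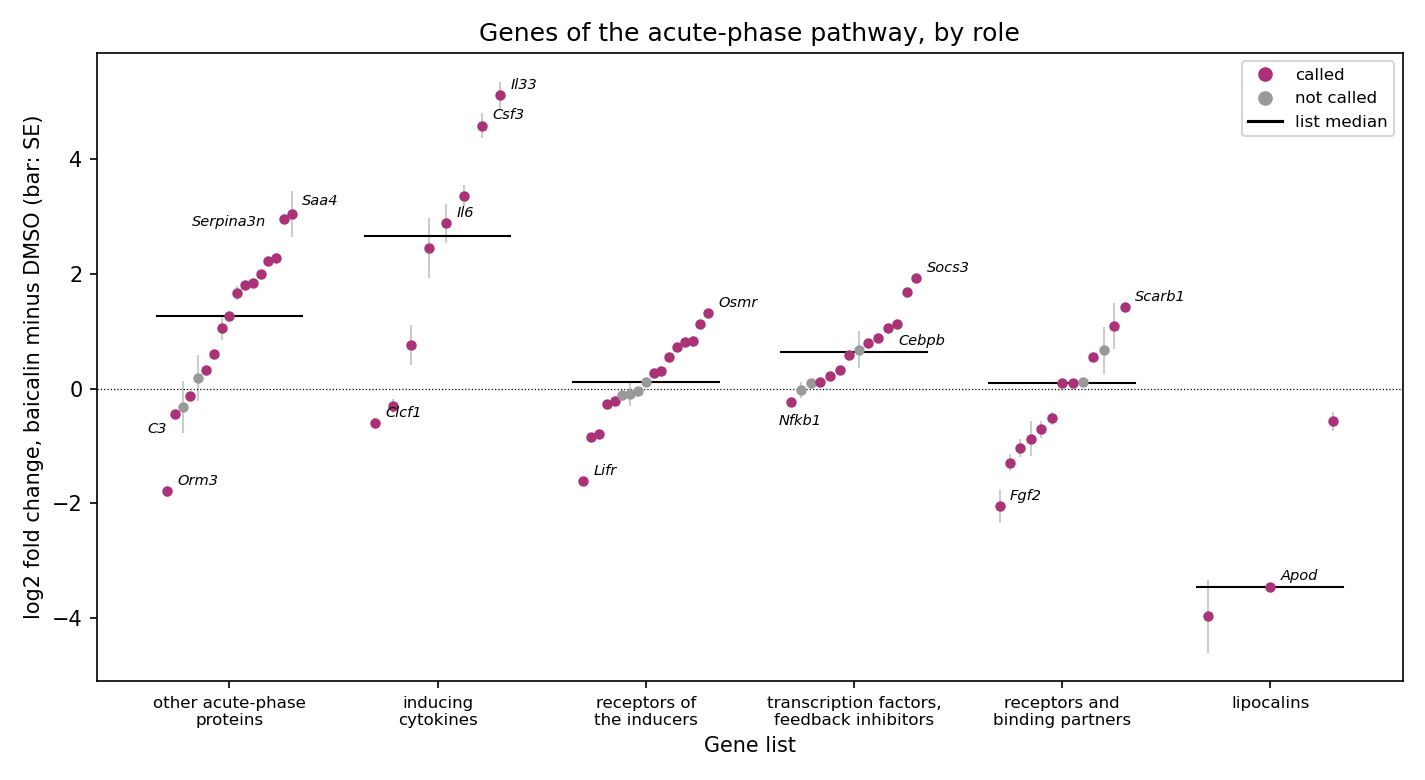
log2 fold change (baicalin minus DMSO, bar: SE) of the tested genes in 6 lists of the acute-phase pathway. Coloured points were called by edgeR and grey points were not, and black lines mark list medians. These stand at 1.27 for other acute-phase proteins, 2.66 for inducing cytokines and -3.45 for the 3 tested lipocalins other than orosomucoids.

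Of 14 cytokines that can induce these genes, 8 were tested, and 6 rose and 2 fell, with a median of 2.66. Among all genes tested, 33.6% rose and 34.1% fell. None had a group mean above 24.6 CPM. Il33, an alarmin of the interleukin-1 family, had 4, 7 and 9 reads under DMSO against 193, 202 and 273 under baicalin, a log2 fold change of 5.11 (SE 0.24, adjusted p = 4.59e-25). Csf3, the granulocyte growth factor, rose by 4.58 (adjusted p = 5.97e-25) and Lif, a ligand of gp130, by 3.36 (adjusted p = 2.09e-23). Il6 had 9, 5 and 10 reads under DMSO against 35, 62 and 73 under baicalin (2.88, SE 0.34, adjusted p = 1.57e-10). On the log2(FPKM + 1) scale the values were 2.29 for Il33, 2.81 for Csf3, 1.67 for Lif and, without a filter, 0.99 for Il6.

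Interleukin-1 beta and tumour necrosis factor, classical inducers of the NF-kB route, were nearly absent: Il1b had 5 reads over the DMSO libraries and 1 over the baicalin libraries, and Tnf had 2 and 0. Il1a, the other interleukin-1 ligand of the list, had 4, 0 and 8 reads under DMSO against 13, 19 and 32 under baicalin, and rose by 2.45 (SE 0.53, adjusted p = 0.000113). Its exons overlap those of Gm14023 by 222 bases, which had 24 reads against 76, so its counts are uncertain. The gp130 ligands Clcf1 (-0.60, adjusted p = 1.07e-07) and Ctf1 (-0.30, adjusted p = 0.0306) were lower in baicalin. The call of Ctf1 was lost with DESeq2 (adjusted p = 0.161) and with DMSO replicate 2, DMSO replicate 3 or baicalin replicate 3 left out (adjusted p from 0.0849 to 0.202).

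The list of receptors for these cytokines also held Toll-like receptors with their partners and the glucocorticoid receptor. Its genes moved in both directions: of 17 tested, 8 rose, 5 fell and 4 did not pass, with a median of 0.11. Shares over all genes tested were 33.6% higher and 34.1% lower. Osmr, the oncostatin M receptor, rose from 182.1 ± 5.52 to 452.6 ± 2.83 CPM (1.31, adjusted p = 2.03e-34), and its common partner Il6st rose by 0.55 (adjusted p = 1.14e-18). Lifr, the receptor for Lif, fell from 158.7 ± 15 to 51.9 ± 0.461 CPM (-1.61, adjusted p = 5.10e-26). The interleukin-6 receptor Il6ra had -0.84 (adjusted p = 1.29e-16). Tnfrsf1a, the main receptor for tumour necrosis factor, rose by 1.12 (adjusted p = 1.37e-30) and the Il33 receptor Il1rl1 by 0.83 (adjusted p = 1.95e-13). Il1r1 was not called (-0.05, adjusted p = 0.318), but was called lower when scaled by library size alone (-0.17, adjusted p = 0.00019).

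Among the transcription factors and feedback inhibitors of both routes, 14 were tested, of which 10 rose, 1 fell and 3 did not pass. Their median was 0.64. The shares over all genes tested were 33.6% higher and 34.1% lower. The largest rise was that of Socs3, which damps gp130 signalling, with 737, 643 and 814 reads under DMSO against 2532, 2758 and 2606 under baicalin (1.92, SE 0.05, adjusted p = 6.02e-34). Bcl3 (1.69, adjusted p = 4.85e-31) and Nfkbiz (1.12, adjusted p = 3.40e-30), nuclear partners of NF-kB, rose as well. Cebpb rose by 1.05 (adjusted p = 6.14e-27), Cebpd by 0.88 (adjusted p = 9.37e-21), Nfkbia, the NF-kB inhibitor, by 0.79 (adjusted p = 1.16e-22) and Stat3 by 0.59 (adjusted p = 3.13e-19). Of the NF-kB subunits, Rela rose by 0.32 (adjusted p = 1.50e-07) and Nfkb1 was lower (-0.24, adjusted p = 3.53e-06). These are transcript levels and do not measure the activity of the factors. Exons of Cebpb, Cebpd and Stat3 overlap those of Tmem189, Spidr and Stat5a on the other strand or beside them, each with fewer reads than the named gene.

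Receptors and binding partners of the 9 proteins showed no common direction: of 27 listed, 13 were tested, 5 rose, 6 fell and 2 did not pass (median 0.09). Across all genes tested, 33.6% were called higher and 34.1% lower. Scarb1, a lipoprotein receptor that takes up serum amyloid A, rose by 1.42 (adjusted p = 7.74e-28) and Lrp1, which clears haemopexin and protease complexes, by 0.55 (adjusted p = 1.21e-18). The fatty acid and serum amyloid A receptor Cd36 had -1.03 (adjusted p = 0.00104), and Slc22a17, a receptor for lipocalin 2, -0.71 (adjusted p = 3.19e-05). The haptoglobin receptor Cd163 had 1 to 8 reads in a library, and the formyl peptide receptor Fpr2 had none.

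Most relatives of Lcn2, Slpi and Ptx3 by protein family had too few reads to be tested, and none of those tested was called higher. With so few tested, and 33.6% of all genes tested called higher, nothing is read from this. The list of 15 lipocalins left out the orosomucoids, which belong to the same family and are described above. Of the 15, 3 were tested and all fell. Apod, apolipoprotein D, went from 712.8 ± 57.3 to 65.2 ± 5.09 CPM (-3.45, adjusted p = 1.70e-12) while Lcn2 was higher, and C8g, a complement component, had -0.57 (adjusted p = 0.00186). Of 19 genes with a WAP domain, the fold that Slpi carries, 2 were tested and neither was called at these low counts. Without the low-count filter 2 were called higher. Nptxr was the only pentraxin relative of Ptx3 with enough reads, and it was not called (-0.14, adjusted p = 0.204).

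Markers of other cells that make these proteins were low. Of 10 macrophage markers, 4 were tested, 1 rose and 3 did not pass, where 33.6% of all genes tested rose. The one that rose was Cd68, with 19, 22 and 25 reads under DMSO against 36, 32 and 65 under baicalin (1.08, adjusted p = 0.00106). The summed level of the 10 was 5.26 to 5.81 CPM in DMSO and 6.16 to 7.40 CPM in baicalin. Csf1r in this sum shares 873 exonic bases with Hmgxb3, which had 4702 reads against 99, so its counts are uncertain. Ptprc, Adgre1, Itgam and Tyrobp had 0 to 4 reads in a library, and Lyz2 had 22 to 46. Of 10 neutrophil markers the only gene tested was S100a8, which had 28, 37 and 38 reads under DMSO against 185, 195 and 165 under baicalin (2.47, adjusted p = 1.60e-18). The neutrophil sum rose with it, from 1.63 to 2.69 CPM to 10.1 to 11.7 CPM, while S100a9, Ltf, Retnlg, Csf3r and Cxcr2 were at 0 in every library. The summed level of 10 hepatocyte markers was 0.678 to 1.40 CPM over the 6 libraries, and none could be tested.

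Epithelial markers, 10 in number, summed to 1.19 to 1.86 CPM in DMSO and 1.58 to 2.45 CPM in baicalin, with Epcam, Cdh1, Krt5 and Krt14 at 0. Endothelial markers, also 10, summed to 3.12 to 3.90 CPM and 5.82 to 7.16 CPM. Of these Vwf rose (2.01, adjusted p = 4.88e-07), while Tie1 and Cldn5 were at 0. Egfl7 of this list shares 64 exonic bases with Agpat2, which had 5244 reads against 294, so this sum is uncertain. Among the baicalin libraries, Saa3 was lowest in replicate 1 (7899.0 CPM) and Lcn2 in replicate 2 (7819.7 CPM). Which cells made these transcripts was not tested.

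Markers of the labelled cell type went in both directions. Of 15 mature fat cell markers, 11 were tested, of which 3 rose, 7 fell and 1 did not pass, with a median of -0.53. In all genes tested, 33.6% rose and 34.1% fell. The summed level of the 15 markers was 2423.2 to 2629.9 CPM in DMSO and 1219.1 to 1272.7 CPM in baicalin. Most of that difference was Lpl, lipoprotein lipase, which went from 1442.8 to 490.8 CPM (-1.56, adjusted p = 2.61e-37). Adipoq, with a mean of only 0.898 CPM over the 6 libraries, had a log2 fold change of -3.54. Lipe, hormone-sensitive lipase, had 0.60 (adjusted p = 1.18e-14). Of 12 fibroblast and preadipocyte markers, 11 were tested, 4 rose and 7 fell, with a median of -0.34. The stem cell antigen Ly6a rose by 1.91 (adjusted p = 2.09e-32), and the preadipocyte marker Dlk1 had -1.15 (adjusted p = 9.31e-13). The part of these changes in the levels of the 9 genes was not tested.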

How the data were processed

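Libraries were prepared from the poly-A RNA of 6 samples (NEBNext Ultra, per the labels' protocols). Reads per gene were counted by the authors with featureCounts 1.5.0-p3 (series design text). The deposited table holds these counts and FPKM values for the 3 DMSO and 3 baicalin samples. FPKM was computed by the authors from counts and gene length, per the same text. Per the submitters' processing notes, the build is mm10. The aligner, annotation, read length and strand setting were not given in the sources used here. No per-sample column was left unmatched (0).

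The test was edgeR 4.0.16 on counts (R 4.3.3, filterByExpr, TMM, robust quasi-likelihood fit, treatment as the only term) over all 13728 genes that passed the filter. Within each group, libraries differed beyond counting noise (chi-square per degree of freedom 2.71 to 4.13), and each was counted as a replicate. This excess does not show that they are separate cultures. The 9 genes, the gene lists and the tests were chosen with earlier results of these data known, so no list supports another. Named were the 9 genes, 15 fixed genes, up to 5 called genes of each list with the largest change and at least 5 CPM, nearest neighbours with at least 10 reads, the 5 genes most like Saa3 (pseudocount 0.5), and any marker. C3, Steap4, Crp, Apcs, Fga, Fgb, Fgg, Hamp, Fpr2, Il1a, Gtf2h1, Gm45629, Gm9392 and Ldha were named after their values were seen, and some genes that the rule names are not reported here. Positions are from GENCODE M21 and promoters from RefSeq, whose table had entries for 7 of the 9 genes (Hp and Orm1 are not among them). Alternatives were DESeq2 1.42.0, limma-voom (limma 3.58.1), RLE factors, library size alone, no filter, a filter of 1 CPM in a whole group, a replicate block, limma on log2(FPKM + 1) and log2(FPKM + 0.1), and leaving out each library.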

Additional observations from a re-analysis of the deposited data

How the results depend on the processing

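The count of members called higher was 7 under every alternative run, and no alternative reversed a called direction. Members called lower numbered 1 (Orm2) in place of 0 with library size alone, log2(FPKM + 1) and log2(FPKM + 0.1). Over all alternatives the log2 fold changes ranged from 3.07 to 3.24 for Saa3, 2.88 to 3.07 for Lcn2, 1.73 to 1.91 for Hp, 2.22 to 2.40 for Ptx3, 4.08 to 4.26 for Slpi, 2.63 to 3.51 for Saa1, 1.84 to 3.18 for Saa2, -0.11 to 0.20 for Orm1 and -0.75 to -0.36 for Orm2. Inducing cytokines called higher numbered 3 on log2(FPKM + 1) and log2(FPKM + 0.1), where fewer genes were tested, and those called lower 1 with DESeq2, with no low-count filter and on log2(FPKM + 1) without a filter, and 1 to 2 with a library left out. Receptors and binding partners called higher numbered 3 with library size alone, the filter of 1 CPM, log2(FPKM + 1) and log2(FPKM + 0.1), 2 on log2(FPKM + 1) without a filter, and 2 to 6 with a library left out, the lowest without baicalin replicate 1. WAP-domain genes called higher numbered 2 with no low-count filter, 1 on log2(FPKM + 1) without a filter and 0 to 1 with a library left out. The pentraxin relatives called lower numbered 1 with library size alone. The cause of these moves was not tested except where stated.

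Replicate numbers did not pair the samples: residuals of DMSO and baicalin libraries with the same number correlated at 0.035, 0.037 and -0.002. With the replicate block 4660 genes were higher and 4731 lower, against 4618 and 4676, and 7 members higher and 0 lower. The block changed the call of no named gene and moved no count of calls by over 1.5 times. Depth limits Saa1, Saa2, Saa4 and Orm2, which had at most 53 reads in a DMSO library, and most of the cytokines.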
